A study of Mus musculus with 3 samples.

Results

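Chemokines are small secreted or membrane-tethered proteins that steer the movement of blood cells, and their receptors are G protein-coupled receptors on the cells that respond. In marrow, the ligand CXCL12 from stromal cells holds stem cells in their niche through its receptor CXCR4, while CCR2 guides inflammatory monocytes and CCL3 is known in mice as a restraint on stem and progenitor cell division. Atypical chemokine receptors bind ligands without G protein signalling and take them up or transport them. The genes described here are all genes of the array whose symbol begins with Ccl, Cxcl, Xcl, Ccr, Cxcr, Xcr or Ackr followed by a number, together with Cx3cl1 and Cx3cr1. They number 55 of the 23185 genes with a symbol, 34 of them ligands and 21 receptors.

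The cells were submitted as LT-HSCs (long-term haematopoietic stem cells, which sustain blood formation for life) from female C57Bl/6 mice aged 8 to 10 weeks. The mice had been given 8 Gy of total body irradiation (TBI) as FLASH, which is delivery at an ultra-high dose rate, or of 8 Gy at CDR, read here as conventional dose rate, or were non-irradiated. In each group 10000 marrow cells of this kind were isolated 15 days after TBI for hybridisation to Affymetrix arrays, with 1 array per group, and neither the means of isolation nor the number of mice per sample is given in the sources used here. No difference below has a replicate check or a test, and "higher" and "lower" describe these arrays only.

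Levels are the deposited processed values on a log scale, taken as log2. A gene was called detected on an array when it exceeded the 95th percentile there of 1339 genes assumed silent in blood cells (olfactory and vomeronasal receptors and receptors for trace amines), which was 4.27 on the FLASH, 4.17 on the CDR and 4.16 on the non-irradiated array. In a comparison it was called detected when the brighter of the arrays passed. Of the 10 measured stem cell markers all 10 were detected on each array. Their summed linear level, the sum of the levels taken out of the log in arbitrary intensity units, was 1777 on FLASH, 1796 on CDR and 3491 on non-irradiated. Procr, the stem cell surface marker EPCR, read 6.33 on FLASH, 5.42 on CDR and 7.15 on non-irradiated. Slamf1, the marker CD150, read 6.24 on FLASH, 6.11 on CDR and 6.13 on non-irradiated. Of 5 multipotent and lymphoid-primed progenitor markers, 4 were also detected on each array. Cd34 read 10.81 on FLASH, 10.92 on CDR and 11.25 on non-irradiated, and Cd48 10.05 on FLASH, 10.18 on CDR and 9.70 on non-irradiated. The neutrophil marker Mpo read 12.45 on FLASH, 12.52 on CDR and 12.36 on non-irradiated. On every array the progenitor markers Cd34 and Cd48 and the neutrophil marker Mpo thus read higher than Procr and Slamf1. The name LT-HSC is that of the submitters, and how pure the isolated cells were was not tested.

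Of the 55 chemokine system genes, 36 were detected on at least 1 array, which is 65.5% against 58.2% of all genes. They were 22 ligands and 14 receptors, and 28 of the 36 were detected on all 3 arrays. The other 12 ligands read between 2.3 and 3.96 and the other 7 receptors between 2.94 and 3.82 on every array, under each detection level. The same value on all 3 arrays was deposited for 19 members, or 34.5%, against 39.8% of all genes, so that differences of exactly 0 are frequent in the values below. Gene lists and members were chosen with earlier results of these data known.

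**Figure D1:**
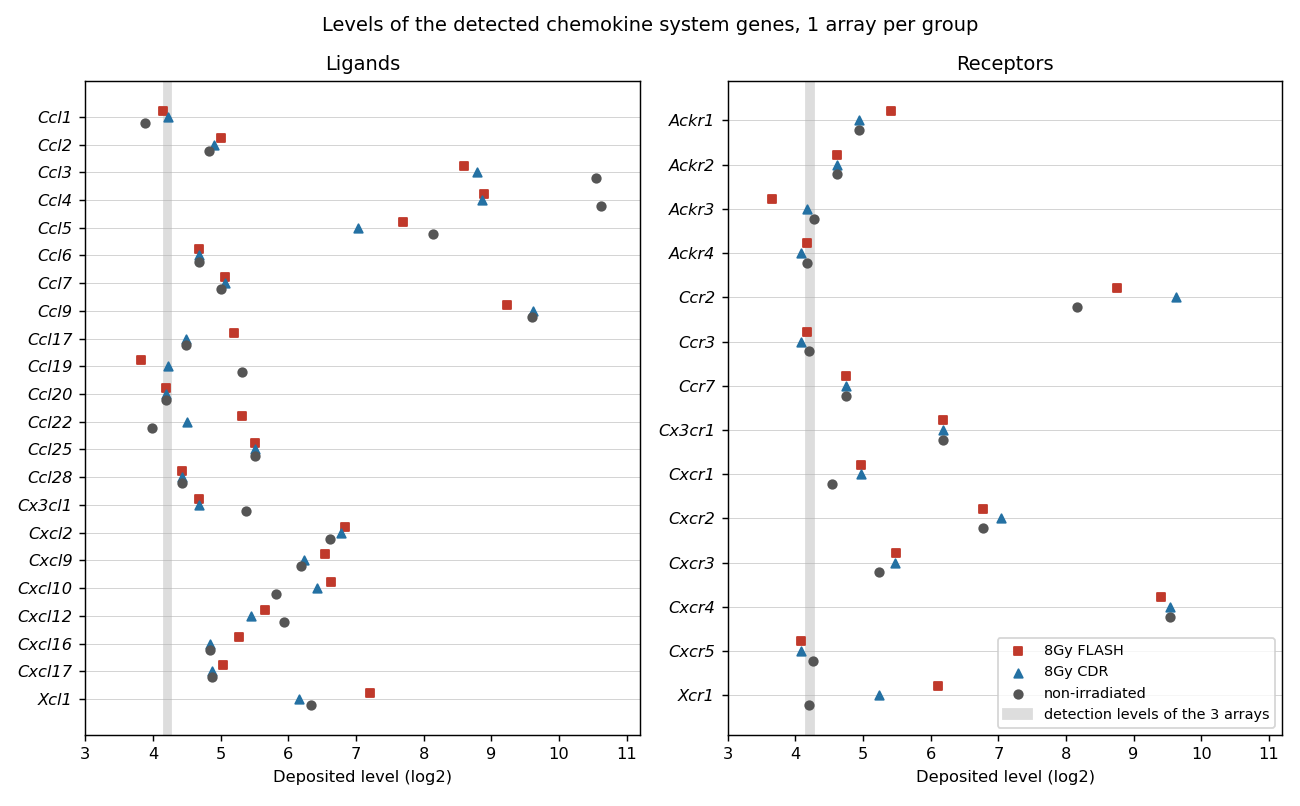
Deposited log2 level (horizontal axis) of each detected ligand (left) and receptor (right) on the FLASH (squares), CDR (triangles) and non-irradiated (circles) arrays, 1 array per group, with the grey band spanning the detection levels of 4.16 to 4.27. Ccl3 and Ccl4 stand near 8.6 to 8.9 on both irradiated arrays and above 10.5 on the non-irradiated one, and Xcr1 and Ccr2 are lowest on the non-irradiated array.

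In CDR cells the ligand genes Ccl3, Ccl4, Ccl5 and Ccl19 were at least 2-fold lower than on the non-irradiated array, and the receptor genes Ccr2 and Xcr1 were at least 2-fold higher. In FLASH cells Ccl3, Ccl4 and Ccl19 passed the same threshold downwards, and the ligand gene Ccl22 and the receptor gene Xcr1 upwards. Between the irradiated arrays 1 member passed 2-fold, the ligand gene Xcl1, which was higher on FLASH than on CDR. Cxcr4, the receptor of CXCL12, read within 1.10-fold on all arrays.

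Against the non-irradiated array, 4 of 22 ligands detected in the comparison (18.2%) were at least 2-fold lower on CDR, where 2.38% of all 13314 detected genes were, and 0 were at least 2-fold higher, where 0.774% were. Of 14 receptors, 2 (14.3%) were at least 2-fold higher on CDR and 0 lower. In the FLASH comparison 3 of 20 ligands (15.0%) were at least 2-fold lower, where 1.78% of all 13119 detected genes were, and 1 (5.0%) was at least 2-fold higher, where 1.18% were. Of 13 receptors, 1 (7.69%) was at least 2-fold higher and 0 lower. The median log2 difference of the ligands was 0.00 on CDR and 0.03 on FLASH, and that of the receptors was 0.00 on both, as was that of all detected genes. The 2-fold calls were thus in a few members, and most ligands and receptors lay within 2-fold. Differences of opposite sign cancel in these medians. Without sign, the median log2 difference on FLASH was 0.41 for ligands and 0.17 for receptors, against 0.09 for all detected genes. On CDR it was 0.12 for ligands and 0.10 for receptors, against 0.08 for all detected genes. These comparisons share the non-irradiated array, so that an unusual value there enters both.

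**Figure D2:**
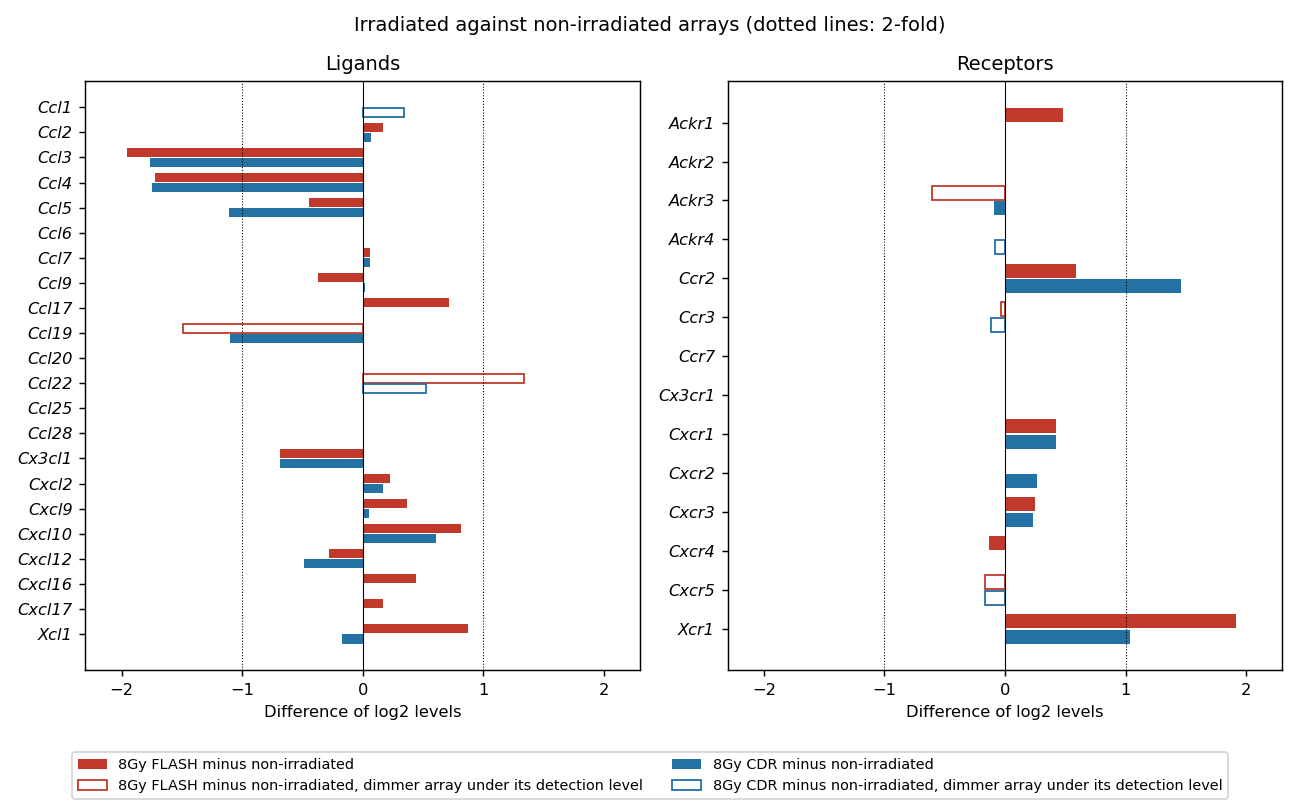
Difference of log2 levels (horizontal axis) for FLASH (red) and CDR (blue) minus the non-irradiated array, for detected ligands (left) and receptors (right). Open bars mark differences whose dimmer array lay under its detection level, a missing bar is a difference of 0 or a gene not detected in that comparison, and dotted lines mark 2-fold. The bars of Ccl3 and Ccl4 reach -1.72 to -1.96, and that of Xcr1 on FLASH reaches 1.91.

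Sequence upstream of the transcription start is shown for members at least 2-fold apart in a comparison, so that the letters next to their start can be set beside their levels. The promoter table drawn from RefSeq (build GRCm38.p6) matched 41 of the 55 members and 6 of these 8, Ccl3, Ccl19, Ccl22, Xcl1, Xcr1 and Ccr2. Cxcl10, which passed 1.5-fold on both irradiated arrays, is added because its window held matches to 3 of the motifs. Each line gives the 250 bases before the start, 5′ to 3′ on the strand of the gene, and capitals mark every match to a motif searched on both strands.
Ccl3 (chr11:83649379-83649628, reverse strand): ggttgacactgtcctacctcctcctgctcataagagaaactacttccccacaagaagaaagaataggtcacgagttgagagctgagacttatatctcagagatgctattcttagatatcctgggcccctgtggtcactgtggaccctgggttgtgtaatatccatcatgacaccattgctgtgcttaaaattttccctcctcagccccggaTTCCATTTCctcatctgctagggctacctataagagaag
Ccl19 (chr4:42756366-42756615, reverse strand): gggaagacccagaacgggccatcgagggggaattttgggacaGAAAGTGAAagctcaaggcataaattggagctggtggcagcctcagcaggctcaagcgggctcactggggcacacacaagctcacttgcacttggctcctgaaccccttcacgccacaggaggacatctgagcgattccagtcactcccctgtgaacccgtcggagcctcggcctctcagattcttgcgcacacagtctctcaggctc
Cxcl10 (chr5:92348890-92349139, reverse strand): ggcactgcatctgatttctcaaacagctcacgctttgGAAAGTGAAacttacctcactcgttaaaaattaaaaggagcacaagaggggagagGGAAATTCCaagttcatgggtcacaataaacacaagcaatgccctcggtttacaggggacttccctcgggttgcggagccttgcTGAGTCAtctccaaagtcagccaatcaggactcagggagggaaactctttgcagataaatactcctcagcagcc
Ccl22 (chr8:94745434-94745683, forward strand): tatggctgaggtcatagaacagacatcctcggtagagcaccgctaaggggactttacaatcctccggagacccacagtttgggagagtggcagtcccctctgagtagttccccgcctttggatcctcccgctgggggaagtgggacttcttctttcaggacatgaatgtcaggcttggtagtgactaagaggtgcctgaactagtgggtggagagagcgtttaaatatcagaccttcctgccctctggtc
Xcl1 (chr1:164935523-164935772, reverse strand): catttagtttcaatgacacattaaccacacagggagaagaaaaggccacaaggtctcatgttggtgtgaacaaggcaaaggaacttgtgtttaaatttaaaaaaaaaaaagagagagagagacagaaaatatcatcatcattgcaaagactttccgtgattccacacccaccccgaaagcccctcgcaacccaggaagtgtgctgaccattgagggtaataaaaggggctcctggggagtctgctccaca
Xcr1 (chr9:123862030-123862279, reverse strand): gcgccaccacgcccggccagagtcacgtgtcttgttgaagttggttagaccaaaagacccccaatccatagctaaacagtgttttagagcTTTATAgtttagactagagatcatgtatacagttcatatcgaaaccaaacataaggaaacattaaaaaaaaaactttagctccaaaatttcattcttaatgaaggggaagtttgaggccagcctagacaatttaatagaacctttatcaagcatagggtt
Ccr2 (chr9:124101933-124102182, forward strand): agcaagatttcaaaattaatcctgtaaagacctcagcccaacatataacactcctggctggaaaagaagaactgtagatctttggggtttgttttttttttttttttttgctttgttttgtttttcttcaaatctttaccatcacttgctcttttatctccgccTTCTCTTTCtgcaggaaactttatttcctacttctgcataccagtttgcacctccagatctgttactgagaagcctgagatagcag
The motifs were the NF-kappaB core GGANTTTCC, the AP-1 site TGANTCA, the cyclic AMP response element TGACGTCA, the core of the interferon-stimulated response element GAAANNGAA and the TATA box TATAAA, where N is any base. No printed matches overlap. The interferon-stimulated core stood at base -39 in the Ccl3 window and at base -86 in the Ccr2 window, both on the opposite strand, and at base -208 in the Ccl19 window. The Xcr1 window held the TATA letters on the opposite strand at base -160. The Cxcl10 window held the interferon-stimulated core at base -213, the NF-kappaB core on the opposite strand at -158 and the AP-1 letters at -74. The windows of Ccl22 and Xcl1 held none of these letters. Over the first listed window of 27025 genes, the NF-kappaB core occurred in 1.05%, AP-1 in 6.87%, the cyclic AMP element in 1.62%, the interferon-stimulated core in 7.16% and TATAAA in 13%. Among the 41 members with a window, the NF-kappaB core occurred in 5, those of Ccr3, Cxcl1, Cxcl2, Cxcl3 and Cxcl10, some of which are related copies. The AP-1 letters occurred in 4 member windows (9.76%) and the cyclic AMP element in 0. The interferon-stimulated core occurred in 8 (19.5%) and TATAAA in 12 (29.3%), against 12.2% for the NF-kappaB core. Matches were thus found in members that were lower, higher and equal on the irradiated arrays. A match is a description of the letters and not a measured binding site.

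Among the ligands, Ccl3 (MIP-1alpha) and Ccl4 (MIP-1beta) encode inflammatory CC chemokines, and they lie next to each other on chromosome 11. Ccl3 read 8.59 on the FLASH array and 8.78 on the CDR array, against 10.55 on the non-irradiated array. Its log2 difference was -1.96 on FLASH and -1.77 on CDR, or 3.89-fold lower on FLASH and 3.40-fold lower on CDR. Ccl4 read 8.89 on FLASH and 8.87 on CDR, against 10.62 on non-irradiated, which is 3.30-fold lower on FLASH and 3.36-fold lower on CDR. For both genes the non-irradiated array stood alone at the high end, and FLASH and CDR differed from each other by -0.19 for Ccl3 and 0.02 for Ccl4.

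Ccl5 (RANTES), an inflammatory chemokine also made by T and NK cells, read 7.70 on FLASH, 7.03 on CDR and 8.14 on non-irradiated. It was thus 2.16-fold lower on CDR and 1.36-fold lower on FLASH than on the non-irradiated array, and FLASH stood 1.59-fold above CDR. With an offset of 32 added before the log its CDR difference was -0.95, short of 2-fold. Ccl9, a mouse CC chemokine that acts on CCR1, read 9.23 on FLASH, 9.62 on CDR and 9.60 on non-irradiated. Ccl9 was therefore close to its non-irradiated level on CDR, with FLASH 1.29-fold lower. Ccl6, a related mouse chemokine gene, read 4.68 on all 3 arrays.

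Ccl5, Ccl9, Ccl6, Ccl3 and Ccl4 follow each other on chromosome 11 with no other protein-coding gene between them in the RefSeq annotation (GRCm38.p6). Of these neighbours, Ccl3, Ccl4 and Ccl5 were lower on both irradiated arrays, Ccl6 was equal on all, and Ccl9 was lower on FLASH only, at -0.37 against 0.02 on CDR. The 6 ligand genes of the same chromosome that lie before them, with 25 other coding genes in between, include the CCR2 ligand genes Ccl2 and Ccl7. Ccl2 (MCP-1) read 5.0 on FLASH, 4.90 on CDR and 4.83 on non-irradiated. Ccl7 (MCP-3) read 5.06 on both irradiated arrays and 5.0 on the non-irradiated one. Ccl1, a ligand of CCR8, read 4.14 on FLASH, 4.22 on CDR and 3.88 on non-irradiated and passed detection on CDR alone. Ccl8, Ccl11 and Ccl12 were under the detection level on every array, each with the same value on all 3.

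Several lists of marker genes also differed between the arrays, not all in the direction of Ccl3, Ccl4 and Ccl5. All 8 mast cell and basophil markers in the table were detected on FLASH and on CDR and 5 on non-irradiated, where Tpsb2, Mcpt4 and Cma1 were under the detection level. Their summed linear level was 1446 on FLASH, 1280 on CDR and 1778 on non-irradiated, and Prss34, a basophil protease gene, read 7.87 on FLASH, 6.53 on CDR and 9.25 on non-irradiated. Tpsb2, a mast cell tryptase gene, went the other way, at 6.81 on FLASH, 5.89 on CDR and 3.89 on non-irradiated. Of 7 T and NK cell markers in the table, 3 were detected on each array, and Cd3e, Cd3d, Cd3g and Gzma were under the detection level on all of them. Their summed level was 2341 on FLASH, 2628 on CDR and 2088 on non-irradiated, of which the cytotoxic granule gene Nkg7 alone made up 94.2% on FLASH, 95.3% on CDR and 93.8% on non-irradiated. The stem cell list, whose sums are given above, was higher on the non-irradiated array, like the mast cell and basophil sum. The T and NK cell sum was lowest there. The part of these cells in the chemokine differences was not tested. In a bulk sample, fewer cells of a type and less RNA per cell cannot be told apart.

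**Figure D3:**
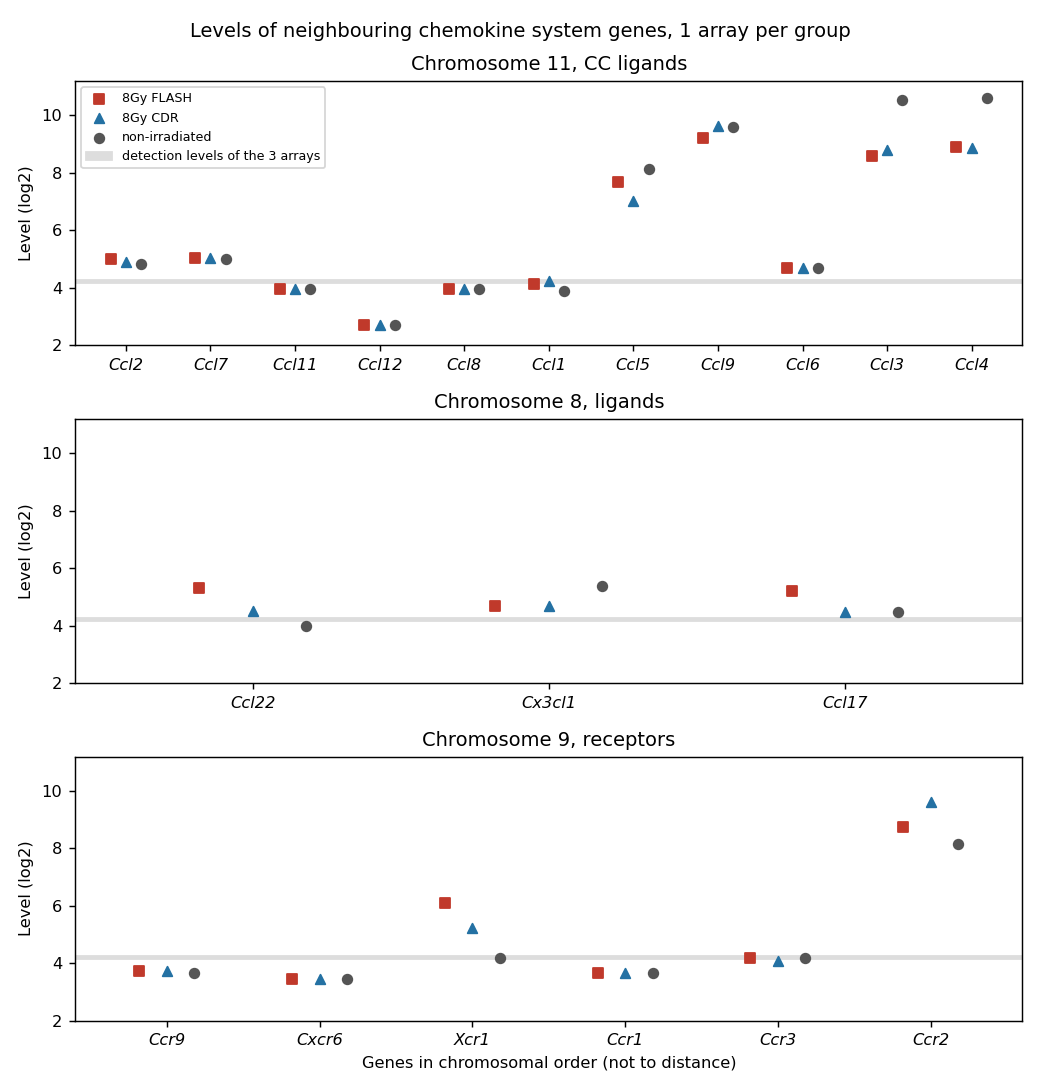
Deposited log2 level (vertical axis) of neighbouring ligand genes on chromosomes 11 and 8 and of neighbouring receptor genes on chromosome 9, drawn in chromosomal order and not to distance, for FLASH (squares), CDR (triangles) and non-irradiated (circles), with the detection levels as a grey band. On chromosome 11 Ccl3 and Ccl4 are lower on both irradiated arrays while Ccl6 between Ccl9 and Ccl3 is at 4.68 on each, and on chromosome 9 Xcr1 and Ccr2 are higher on both irradiated arrays while Ccr1 between them is at 3.65 on each.

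The dendritic cell chemokine genes Ccl22 and Ccl17, whose products both act on CCR4, flank Cx3cl1 on chromosome 8 with no other coding gene between. Ccl22 read 5.32 on FLASH, 4.50 on CDR and 3.98 on non-irradiated, where it was under the detection level. It was at least 2.24-fold higher on FLASH and at least 1.27-fold higher on CDR than on the non-irradiated array. Ccl17 read 5.20 on FLASH and 4.49 on both other arrays, which is 1.64-fold higher on FLASH. Cx3cl1, which encodes the membrane-bound chemokine fractalkine, read 4.68 on both irradiated arrays and 5.37 on non-irradiated, or 1.61-fold lower on each. The 3 neighbours thus did not share a direction. Their receptor genes did not follow them, since Ccr4 read at most 2.98 and was detected on no array, and Cx3cr1, a receptor of monocytes, read 6.18 on all 3. Ccl22 and Ccl19 were not called under a detection level set at the 99th percentile of the silent genes, nor did they pass 2-fold with the offset of 32.

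Ccl19, whose product draws CCR7-bearing cells to lymphoid tissue, read 3.83 on FLASH, under the detection level, 4.22 on CDR and 5.32 on non-irradiated. It was at least 2.07-fold lower on FLASH and 2.14-fold lower on CDR. Its receptor gene Ccr7 read 4.76 on all 3 arrays.

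The interferon-inducible ligand genes Cxcl9 and Cxcl10, whose products act on CXCR3, were higher on the irradiated arrays by less than 2-fold. Cxcl10 read 6.63 on FLASH, 6.42 on CDR and 5.82 on non-irradiated, or 1.76-fold higher on FLASH and 1.52-fold higher on CDR. Cxcl9 read 6.55 on FLASH, 6.23 on CDR and 6.18 on non-irradiated. Cxcl11, the other ligand gene of this receptor, read at most 3.53 and was detected on no array. Cxcr3 itself read 5.49 on FLASH, 5.47 on CDR and 5.24 on non-irradiated. For Cxcl9 and Cxcl10, and for Cxcr3 by 0.02 between FLASH and CDR, the order was FLASH, CDR, non-irradiated from high to low.

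Cxcl2, whose product draws neutrophils through CXCR2, read 6.84 on FLASH, 6.78 on CDR and 6.61 on non-irradiated. The other CXCR2 ligand genes Cxcl1, Cxcl3 and Cxcl5 were detected on no array. Cxcr2 read 6.78 on FLASH, 7.04 on CDR and 6.78 on non-irradiated, so that CDR was 1.2-fold higher than either. Cxcr1, a further neutrophil receptor gene next to Cxcr2 on chromosome 1, read 4.97 on both irradiated arrays and 4.54 on non-irradiated. Of 10 neutrophil markers in the table, 8 were detected on FLASH, 7 on CDR and 9 on non-irradiated, with summed levels of 10076 on FLASH, 10616 on CDR and 10083 on non-irradiated. Mpo, the myeloperoxidase gene, made up 55.5% of the sum on FLASH, 55.4% on CDR and 52.0% on non-irradiated, and other members differed in both directions. Against non-irradiated, 4 of 9 detected members were at least 2-fold lower and 1 higher on FLASH, and 3 of 9 lower and 1 higher on CDR. S100a9 was 2.48-fold lower on FLASH and 4.75-fold lower on CDR, whereas Lcn2, the lipocalin 2 gene, was 2.68-fold higher on FLASH and 4.52-fold higher on CDR. Ltf was under the detection level on all 3, Retnlg on both irradiated arrays and Camp on CDR. The part of neutrophil lineage RNA in the Cxcr2 difference was not tested.

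Xcl1 encodes lymphotactin, a chemokine made by NK and T cells, and Xcr1 its receptor, which marks type 1 dendritic cells. Xcl1 read 7.21 on FLASH, 6.15 on CDR and 6.33 on non-irradiated. Its FLASH level was 2.07-fold that of CDR and 1.83-fold that of non-irradiated, with CDR 1.13-fold lower than non-irradiated. With the offset of 32 the difference between FLASH and CDR was 0.80, short of 2-fold. In the comparison of FLASH with CDR it was 1 of 21 detected ligands (4.76%) at least 2-fold higher, where 0.863% of 12985 detected genes were, and 0 were lower, where 0.146% were. None of the 11 detected receptors passed 2-fold in either direction there.

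Xcr1 read 6.11 on FLASH, 5.24 on CDR and 4.20 on non-irradiated, just above that array's detection level. It was 3.77-fold higher on FLASH and 2.06-fold higher on CDR than on non-irradiated, and 1.83-fold higher on FLASH than on CDR. The FLASH call held under every alternative setting tried, whereas the CDR call did not with the offset of 32, at a difference of 0.47, nor with the 99th percentile detection level. The other 7 type 1 dendritic cell markers in the table had summed levels of 1173 on FLASH, 718 on CDR and 504 on non-irradiated. On each array 6 were detected, with Itgae under the detection level. Clec9a, a receptor of these cells, read 6.38 on FLASH, 5.18 on CDR and 4.23 on non-irradiated, and Naaa read 7.89 on FLASH, 6.78 on CDR and 5.50 on non-irradiated. Wdfy4 and Batf3 in the same list differed by at most 0.01 between arrays. The 7 markers of dendritic cells in general, which include the MHC class II genes, had summed levels of 4165 on FLASH, 2050 on CDR and 1736 on non-irradiated. Cd74 and the class II genes were higher on FLASH than on either other array, while Flt3, the cytokine receptor in the same list, was 2.77-fold lower on FLASH and 2.07-fold lower on CDR than on non-irradiated. Of the 7 markers all were detected on FLASH and 6 on each other array, where Itgax was under the detection level. The part of dendritic cell RNA in the Xcr1, Ccl22 and Ccl17 differences was not tested.

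**Figure D4:**
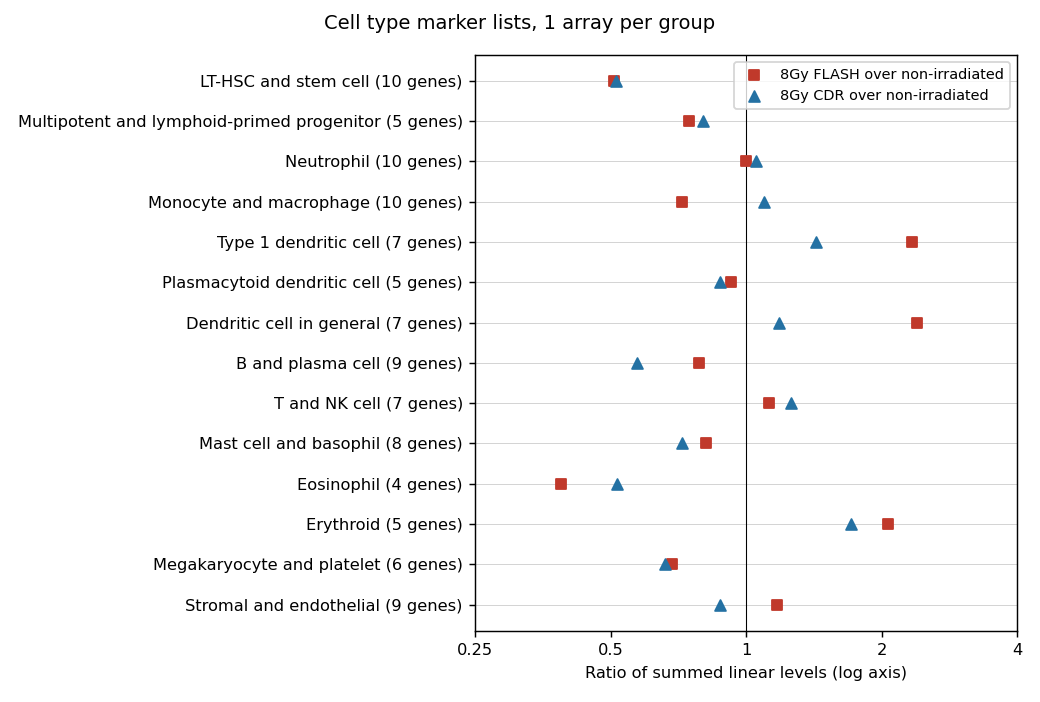
Ratio of the summed linear level (horizontal log axis) of each cell type marker list, FLASH over non-irradiated (squares) and CDR over non-irradiated (triangles), with the number of measured genes in brackets, none of them among the 55 described here. Type 1 dendritic cell markers stand at 2.33 for FLASH and 1.42 for CDR, and stem cell markers at 0.509 for FLASH and 0.514 for CDR.

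Marker lists not set beside a chemokine gene here also differed between arrays. Against the non-irradiated array, the ratio of summed levels of multipotent and lymphoid-primed progenitor markers was 0.747 on FLASH and 0.802 on CDR, that of B and plasma cell markers 0.785 on FLASH and 0.570 on CDR, and that of eosinophil markers 0.388 on FLASH and 0.517 on CDR. Megakaryocyte and platelet markers stood at 0.685 on FLASH and 0.661 on CDR, or at 0.586 on FLASH and 0.60 on CDR without the chemokine genes Pf4 and Ppbp that the list holds, and plasmacytoid dendritic cell markers at 0.926 on FLASH and 0.872 on CDR. Prg2 alone made up 76.0% of the eosinophil sum on FLASH, 80.6% on CDR and 88.8% on non-irradiated. Of the 4 eosinophil markers, 3 were lower and 1 higher on each irradiated array. Jchain made up 43.0% of the B and plasma cell sum on FLASH, 17.9% on CDR and 44.9% on non-irradiated. Of those 9 markers, 6 were lower on each irradiated array, with 2 higher on FLASH and 1 on CDR.

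Among the receptors, Ccr2, the receptor by which inflammatory monocytes leave marrow and enter tissue, read 8.75 on FLASH, 9.62 on CDR and 8.17 on non-irradiated. It was 2.74-fold higher on CDR and 1.5-fold higher on FLASH than on the non-irradiated array. Between the irradiated arrays it was 1.82-fold lower on FLASH than on CDR. Of 10 monocyte and macrophage markers in the table, 9 were detected on each irradiated array and 10 on non-irradiated, with Adgre1 under the detection level on both irradiated arrays. Their summed level was 2154 on FLASH, 3289 on CDR and 2999 on non-irradiated. Csf1r, the receptor of macrophage colony-stimulating factor, read 5.58 on FLASH, 6.59 on CDR and 6.36 on non-irradiated, and Ly6c2 read 10.49 on FLASH, 11.21 on CDR and 11.08 on non-irradiated. Ly6c2 made up 66.8% of the sum on FLASH, 72.1% on CDR and 72.3% on non-irradiated. Of the 10 markers, 4 were lower on FLASH than on CDR, as Ccr2 was, 4 were higher and 2 equal, and none was higher on FLASH than on non-irradiated, where Ccr2 was. On FLASH against CDR the 4 lower were Csf1r at -1.01, Ms4a6c at -0.73, Ly6c2 at -0.72 and F13a1 at -0.65, with Ccr2 at -0.87. The 4 higher differed less, with C1qa at 0.16, C1qb at 0.14, C1qc at 0.05 and Vcam1 at 0.02. The part of monocyte lineage RNA in the Ccr2 values was not tested.

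Ccr2 and Xcr1 lie in a run of receptor genes on chromosome 9 that also holds Ccr9, Cxcr6, Ccr1 and Ccr3. Ccr9, the receptor of the thymic and gut ligand CCL25, read at most 3.73. Cxcr6 read 3.44 and Ccr1 3.65 on all arrays, and none of these 3 was detected. Ccr3, a receptor of eosinophils, read 4.17 on FLASH, 4.08 on CDR and 4.20 on non-irradiated, passing detection on the non-irradiated array alone. Its direct neighbour Ccr2 was thus higher by 1.5-fold or more on both irradiated arrays without a like difference in Ccr3 or Ccr1. Ccr1, whose product is a receptor of CCL3 and CCL5, was thus under the detection level on every array.

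In the CXCL12 axis, which retains stem cells in marrow, the receptor gene Cxcr4 differed little and the ligand gene was lower by less than 1.5-fold. Cxcr4 read 9.40 on FLASH, 9.54 on CDR and 9.54 on non-irradiated, a difference of -0.14 on FLASH and 0.00 on CDR. Cxcl12 read 5.65 on FLASH, 5.44 on CDR and 5.93 on non-irradiated, or 1.21-fold lower on FLASH and 1.40-fold lower on CDR. The stromal and endothelial list of 9 other measured genes, of which 7 were detected on each array and Lepr and Col1a1 on none, had summed levels of 997 on FLASH, 747 on CDR and 853 on non-irradiated. Pecam1 made up 32.4% of the sum on FLASH, 43.5% on CDR and 44.2% on non-irradiated. Against non-irradiated, 4 members were higher and 2 lower on FLASH, and 2 higher and 4 lower on CDR. On FLASH Sparc was 2.10-fold and Plvap 2.18-fold higher, whereas Emcn was 1.99-fold lower. The part of stromal RNA in the Cxcl12 values was not tested. Ackr3, an atypical receptor that scavenges CXCL12, read 3.66 on FLASH, 4.18 on CDR and 4.27 on non-irradiated. Its FLASH level was under the detection level and its other levels were barely above theirs, so that no fold is given for FLASH.

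The other atypical receptors differed by less than 1.5-fold. Ackr1, which binds many chemokines on red cell precursors and endothelium, read 5.41 on FLASH and 4.94 on both other arrays, or 1.39-fold higher on FLASH. The 5 measured erythroid markers, all detected on every array, had summed levels of 1067 on FLASH, 886 on CDR and 518 on non-irradiated. The part of erythroid RNA in the Ackr1 difference was not tested. Ackr2, which takes up inflammatory CC chemokines, read 4.62 on all 3 arrays. Ackr4, a scavenger of CCL19 and CCL25, read 4.17 on FLASH, 4.09 on CDR and 4.17 on non-irradiated, at the edge of detection. Cxcr5, the receptor that guides B cells into follicles, read 4.09 on both irradiated arrays and 4.26 on non-irradiated.

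The remaining detected ligands lay within 1.5-fold across arrays. Ccl25, Ccl28 and Ccl20 each had 1 value on all 3 arrays, at 5.51, 4.42 and 4.19. Cxcl16, a membrane-bound ligand of CXCR6, read 5.28 on FLASH and 4.84 on both other arrays, or 1.36-fold higher on FLASH. Cxcl17 read 5.04 on FLASH, 4.88 on CDR and 4.87 on non-irradiated.

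Genes that act with chemokine receptors were read from a list of 55 genes, of which 52 were in the table and 46 were detected in each comparison. On CDR 3 were at least 2-fold lower than on the non-irradiated array, where 2.38% of all detected genes were, and 0 higher, where 0.774% were. On FLASH 2 were at least 2-fold lower, where 1.78% of all were, and 1 higher, where 1.18% were. On FLASH against CDR 1 was higher, where 0.863% of all were, and 0 lower, where 0.146% were. All 21 measured G protein and effector genes were within 2-fold in every comparison. Gnai2, the inhibitory G protein subunit used by these receptors, read 10.08 on both irradiated arrays and 10.13 on non-irradiated. Rac2, a GTPase of blood cell migration, read 11.43 on FLASH, 11.46 on CDR and 11.47 on non-irradiated. Arrb2, beta-arrestin 2, which turns receptors off, read 9.17 on all 3.

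Among regulators of G protein signalling, Rgs1 read 9.82 on FLASH, 9.40 on CDR and 10.55 on non-irradiated, with differences of -0.73 on FLASH and -1.15 on CDR. Rgs2 read 9.39 on FLASH, 9.36 on CDR and 10.18 on non-irradiated, with differences of -0.80 on FLASH and -0.82 on CDR. The peptidase gene Dpp4, whose product cleaves CXCL12, was at -0.72 on FLASH and -0.97 on CDR. The matrix metalloproteinase gene Mmp2 was at -1.33 on FLASH and -1.04 on CDR, and Sdc4, a heparan sulphate proteoglycan gene, at -1.01 on FLASH and -1.14 on CDR. S1pr1, the sphingosine 1-phosphate receptor of egress from marrow, was at -0.55 on FLASH and -0.67 on CDR. All of these were lower on both irradiated arrays, by 1.46-fold or more. Cd74, the invariant chain of MHC class II and a receptor of the cytokine MIF, read 10.43 on FLASH, 9.15 on CDR and 8.68 on non-irradiated, and was the gene past 2-fold on FLASH in both comparisons. Among chemokine genes under other names, the platelet factor gene Pf4 was at -0.31 on FLASH and -0.46 on CDR, Ppbp at -0.26 on both, and Ccrl2, an atypical relative of the receptors, at -0.47 on FLASH and -0.32 on CDR.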

How the data were processed

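The deposited table holds 1 value per probe set and array for 25206 probe sets, processed by the authors with Partek (per the submitters' processing notes, no version given) and taken as log2 from its range. How background was corrected, probes summarised and arrays normalised is not stated in the sources used here, and neither signal over background nor replicate spread can be had. The platform's probe table gave 1 symbol each for 23185 probe sets, and the symbols of all 55 members equalled those of RefSeq.

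No further normalisation was applied, and a difference is that of 2 log2 levels. Where the dimmer array was under its detection level, a fold is a lower bound ("at least") against that level. With 1 array per group no test was made, and the number of arrays limits every value. Genes named are all members detected on an array, a fixed set of 12 members at any level, receptor and ligand pairs, partner genes at least 1.5-fold apart or preset, and cell type markers. Members and lists were chosen with earlier results of these data known, and motifs and printed sequences after the values were seen. Pair partners without a row were not analysed here.

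Alternatives were median centring, quantile normalisation, an offset of 32, no filter, the 99th percentile for detection, thresholds of 1.5-fold and 3-fold, and dim values raised to the detection level. The steps were tested on simulated data. Python 3.11.15, numpy 2.4.6, pandas 2.3.3, scipy 1.17.1 and matplotlib 3.10.9 were used.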

Additional observations from a re-analysis of the deposited data

How the results depend on the processing

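No paired analysis was possible because each group had 1 array. Counts of ligands and receptors past 2-fold, and their medians, stayed within 1.5 times (medians within 0.1) under median centring, quantile normalisation, no filter and dim values raised to the detection level. For the other settings, only counts and medians that moved beyond this are given, except at 1.5-fold, where all counts are. With the offset of 32, which shrinks differences of dim genes by its construction, 2 ligands were lower and 1 receptor higher on CDR against non-irradiated, 0 ligands were higher on FLASH against non-irradiated, and 0 on FLASH against CDR. With the 99th percentile detection level, which tests fewer genes, 1 receptor was higher on CDR and 0 ligands on FLASH against non-irradiated, with ligand medians of -0.28 for FLASH and -0.18 for CDR and receptor medians of 0.25 for FLASH and 0.13 for CDR. At 1.5-fold against non-irradiated, 1 of 22 ligands was higher and 5 lower on CDR, and 2 of 14 receptors were higher and 0 lower. Of all detected genes, 3.23% were higher and 5.43% lower there. On FLASH, 4 of 20 ligands were higher and 4 lower, and 2 of 13 receptors were higher and 1 lower, where 3.62% of all were higher and 5.35% lower. On FLASH against CDR, 4 of 21 ligands were higher and 0 lower, and 1 of 11 receptors was higher and 1 lower. Of all detected genes, 1.87% were higher and 0.793% lower there. At 3-fold against non-irradiated, 2 of 22 ligands were lower and 0 of 14 receptors higher on CDR. On FLASH 0 of 20 ligands were higher against non-irradiated and 0 of 21 against CDR. For the offset, 99th percentile and 3-fold settings no share of all genes was computed, so those counts have no background beside them. All 12 differences of single members past 2-fold kept their direction under each setting run on them, and each stayed past 2-fold under centring, quantile normalisation and raised dim values. With the offset 6 of the 12 fell short of 2-fold, and 4 were not detected at the 99th percentile. Levels near detection, as for Ccl19, Ccl22, Ackr3 and Xcr1 on non-irradiated, limit what can be read from their folds.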

Other observations

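Many deposited values were shared between probe sets. The FLASH array held 12722 distinct values over 25206 probe sets, the CDR array 12461 and the non-irradiated array 13574. Of all probe sets, detected or not, 54.7% on FLASH, 55.7% on CDR and 50.7% on non-irradiated had a value that at least 1 other probe set also had. Of the chemokine system genes detected on an array, 13 of 29 on FLASH, 21 of 33 on CDR and 16 of 34 on non-irradiated had such a value. Ccl1 and Ccl19 both read 4.22 on CDR, for example, to the last deposited digit compared. How the submitters' processing makes such values was not tested.

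Without antibody and T cell receptor segments, the share of detected genes at least 2-fold lower was 1.49% on FLASH and 1.73% on CDR against non-irradiated, and the share at least 2-fold higher was 0.888% on FLASH and 0.737% on CDR. Between FLASH and CDR 0.242% were higher and 0.101% lower. Leaving out the segments was chosen after seeing the data. Of the detected members, Ccl9 and Xcl1 had differences of opposite sign on the irradiated arrays against non-irradiated, at -0.37 on FLASH and 0.02 on CDR for Ccl9, and at 0.87 on FLASH and -0.18 on CDR for Xcl1.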
